A study of Mus musculus with 4 samples.

Results

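Among islet cells of normal and db/db mice, cells were singled out whose messenger RNA was rich in both the glucagon gene Gcg and the pancreatic polypeptide gene Ppy. A cell was called double-hormone when Gcg held at least 10% and Ppy at least 3% of its unique molecular identifiers (UMIs, counted mRNA molecules), with Ins1 and Ins2 together under 10% and Sst under 5%. Of 20845 cells past the quality limits in 4 libraries, 570 met this rule: 70 in the library of the normal control, 264 in that of early db/db, 57 in that of late db/db and 179 in that of late db/db with intervention (below, the control, early, late and intervention libraries). The same limits with Ppy under 3% gave 1997 Gcg-only cells, namely 1002, 529, 90 and 376 in that order. Double-hormone and Gcg-only cells together are called Gcg-rich. A further class, Ppy-rich cells, had at least 10% Ppy and under 3% Gcg with the same limits on insulin and Sst, and numbered 52, 79, 41 and 81. These cells were chosen by their shares of Gcg, Ppy, insulin and Sst UMIs, so the levels of those genes are given as a description and are not tested.

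The study profiled single cells of mouse pancreatic islets with 10x Genomics 3′ chemistry, in 1 library for each of 4 groups. Early db/db mice were 70 days old and the mice of the other groups 98 days, so that age and group cannot be told apart for the early library. The db/db mouse, here on C57BL/KsJ, lacks the long form of the leptin receptor and becomes obese and hyperglycaemic. All mice were male, and the db/db mice were fed until their blood glucose passed 10 mmol/l. Every genotype label, including that of the control, reads db/db, yet C57BL/6 mice are named in the protocol too, which leaves the control's strain unsettled. No label says what the intervention was or how many mice were pooled per library. The matrix deposited for the early library is named like another control, but its sample label was used. With 1 library per group no difference between groups has a replicate check or a test, and strain, library and group cannot be told apart.

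In the adult islet, alpha cells make glucagon, which raises blood glucose, and gamma (PP) cells make pancreatic polypeptide. Peptide YY, from Pyy, belongs to the same peptide family as pancreatic polypeptide. Most mature endocrine cells carry 1 dominant hormone, and cells with several hormones are known from islet development. Irx1 and Irx2 are transcription factors of mouse alpha cells, and Ttr is abundant in them.

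Ppy and Pyy are neighbours on mouse chromosome 11. In GRCm38 (GENCODE M21), Ppy lies at chr11:102099930-102101319 and Pyy at chr11:102106676-102107832, both on the minus strand, with 5356 bases between them. Gcg lies at chr2:62474530-62483650, also on the minus strand. The promoters of the 3 hormone genes that mark these cells are shown because the cells hold all 3 transcripts at once. Each is 300 bases from RefSeq on GRCm38.p6 (minus strand, 250 before to 50 after the start), at chr11:102101270-102101569 for Ppy, chr11:102107783-102108082 for Pyy and chr2:62483604-62483903 for Gcg. Capitals mark TATAAA and CANNTG (the E-box bound by helix-loop-helix factors such as NeuroD1), each searched on both strands.
Ppy: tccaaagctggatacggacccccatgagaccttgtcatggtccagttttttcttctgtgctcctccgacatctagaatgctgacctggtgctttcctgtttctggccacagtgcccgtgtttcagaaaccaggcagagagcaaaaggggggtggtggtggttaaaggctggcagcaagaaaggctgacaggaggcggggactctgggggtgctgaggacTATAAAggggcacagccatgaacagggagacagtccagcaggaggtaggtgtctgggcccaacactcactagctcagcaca
Pyy: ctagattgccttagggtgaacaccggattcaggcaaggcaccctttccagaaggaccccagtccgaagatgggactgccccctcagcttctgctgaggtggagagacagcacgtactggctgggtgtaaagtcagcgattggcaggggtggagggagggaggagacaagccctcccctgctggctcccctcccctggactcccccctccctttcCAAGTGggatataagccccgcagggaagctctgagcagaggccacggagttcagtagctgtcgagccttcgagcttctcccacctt
Gcg: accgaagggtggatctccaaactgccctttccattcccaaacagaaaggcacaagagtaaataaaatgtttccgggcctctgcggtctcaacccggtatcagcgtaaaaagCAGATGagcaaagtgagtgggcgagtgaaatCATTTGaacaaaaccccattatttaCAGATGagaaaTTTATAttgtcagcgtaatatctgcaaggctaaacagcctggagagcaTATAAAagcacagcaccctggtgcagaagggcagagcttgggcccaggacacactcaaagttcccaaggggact
The Ppy window held TATAAA 1 time and no CANNTG, the Pyy window CANNTG 1 time and no TATAAA, and the Gcg window TATAAA 2 times and CANNTG 3 times. Among 32851 mouse promoters of the same length, 13.6% held TATAAA and 72.3% held CANNTG. These matches describe letters and are not shown to be binding sites.

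Double-hormone cells made up a smaller share of Gcg-rich cells in the control than in the other libraries. The share was 6.53% in the control (70 of 1072 cells, exact Clopper-Pearson 95% interval 5.13 to 8.18). The early library had 33.3% (264 of 793, 30.0 to 36.7), the late library 38.8% (57 of 147, 30.9 to 47.2) and the intervention library 32.3% (179 of 555, 28.4 to 36.3). The control's interval lay apart from the other intervals, which overlapped each other. These intervals cover counting error only and not the spread between mice. After thinning every cell to 3000 UMIs the shares were 6.64%, 33.5%, 37.4% and 31.8%, with 33, 17, 0 and 27 Gcg-rich cells left out as too shallow.

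**Figure D1:**
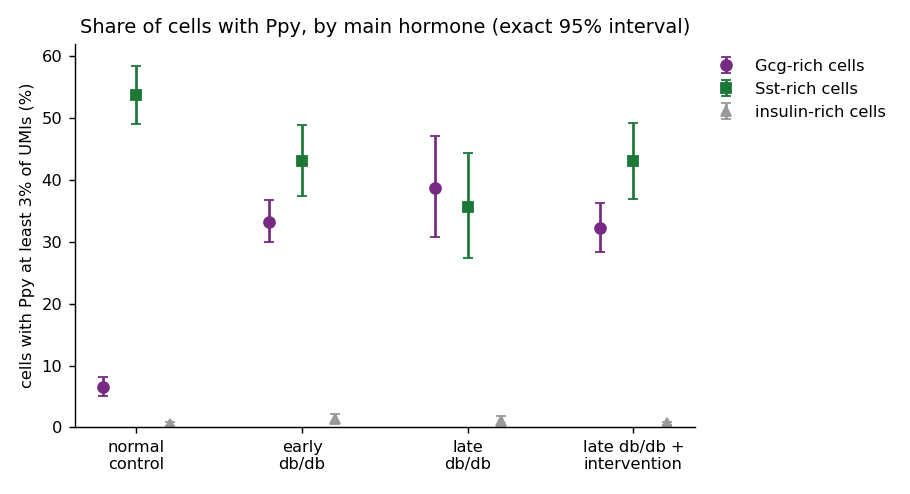
Share of cells with at least 3% Ppy (percent, y axis) among Gcg-rich cells (circles), Sst-rich cells (squares, at least 5% Sst) and insulin-rich cells (triangles, at least 10% insulin) in the 4 libraries, with exact 95% intervals that cover counting error only. Among Gcg-rich cells the control stands at 6.53% and the others at 32.3% to 38.8%, while Sst-rich cells range from 35.6% to 53.8% and insulin-rich cells from 0.522% to 1.42%.

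The share of all cells past the quality limits followed another order, since it also moves with the other cell types captured. Control, early, late and intervention libraries had 1.51%, 5.50%, 0.905% and 3.50%. Gcg-rich cells of any kind were 23.2%, 16.5%, 2.33% and 10.9% of those cells. Among cells that were either double-hormone or Ppy-rich, double-hormone cells made up 57.4%, 77.0%, 58.2% and 68.8%. On this denominator the control's interval (48.1 to 66.3) overlapped those of the late (47.8 to 68.1) and intervention libraries (62.8 to 74.4).

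The level of Ppy varied continuously over Gcg-rich cells, with no gap at the 3% limit. Between 2% and 3% Ppy the libraries held 21, 67, 16 and 64 cells in the same order, and between 3% and 4% they held 14, 50, 13 and 43. The limit on Gcg cut through fewer cells. Of cells with at least 3% Ppy, 5, 15, 4 and 14 held 5% to 10% Gcg and 6, 21, 5 and 19 held 10% to 15%. The median Ppy share over all Gcg-rich cells was 0.0452% in the control and 1.23%, 1.79% and 1.54% in the early, late and intervention libraries. In the control, 64.4% of Gcg-rich cells had under 0.1% Ppy, against 23.8%, 15% and 13.5% in the other libraries. So the libraries differed over the whole range of Ppy and not only above the limit.

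The limits fix a high Ppy in double-hormone and a lower one in Gcg-only cells, so these levels are a description. The median Ppy share of double-hormone cells was 5.55% in the control (range 3.07 to 23.9), 7.16% in the early library (3.03 to 31.8), 6.32% in the late library (3.06 to 26.5) and 5.64% in the intervention library (3.01 to 31.9). In counts this was a median of 1313, 1389, 2268 and 763 Ppy UMIs per cell, beside 7, 53, 143.5 and 64 in Gcg-only cells. Endothelial cells, which lack islet hormones, had median Ppy shares of 0.0232%, 0.0110%, 0.0159% and 0.0694%, and immune cells 0.0273%, 0.0172%, 0.0201% and 0.0774%. These medians are read as background from RNA free in the suspension. Some of these cells nevertheless passed 3% Ppy: 4 of 216 endothelial and 2 of 95 immune cells in the control, 5 of 479 and 2 of 473 in the early library, and 0 of 132 and 19 of 4144 in the late library. None of 205 endothelial and 81 immune cells did so in the intervention library.

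The median Gcg share of double-hormone cells was 26.4% in the control (range 11.4 to 40.4), 32.6% in the early library (10.0 to 54.2), 27.4% in the late library (10.5 to 44.8) and 25.8% in the intervention library (10.0 to 50.6). Gcg-only cells had medians of 34.0%, 37.6%, 31.8% and 30.8%. The limits set a higher minimum for Gcg than for Ppy, so the order of their medians is a description. They do not keep Ppy below Gcg within a cell. Among Gcg-rich cells with under 0.1% Ppy the median Gcg share was 34.1%, 37.4%, 30.4% and 32.0%, and among those with at least 20% Ppy it was 11.8%, 15.8%, 19.4% and 15.3%. The last group held only 3 cells in the control, and shares of one total limit each other.

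Pyy, which the rule did not use, tended to be higher where Ppy was higher among Gcg-rich cells, though not from each bin of Ppy to the next. In the control its median share went from 0.432% of UMIs in cells with under 0.1% Ppy to 3.27% at 2% to 3% Ppy, 6.12% at 5% to 10% and 8.65% at 10% to 20%. In the early library the medians in the same bins were 4.46%, 5.62%, 8.13% and 11.3%. The late library had 2.61%, 6.65%, 9.20% and 11.5%, and the intervention library 2.18%, 4.13%, 6.40% and 7.17%. By ratio the libraries stood farther apart where Ppy was lowest than in cells with 10% to 20% Ppy. Cells of 1 library share its depth and its free RNA, so these medians are a description and carry no test.

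**Figure D2:**
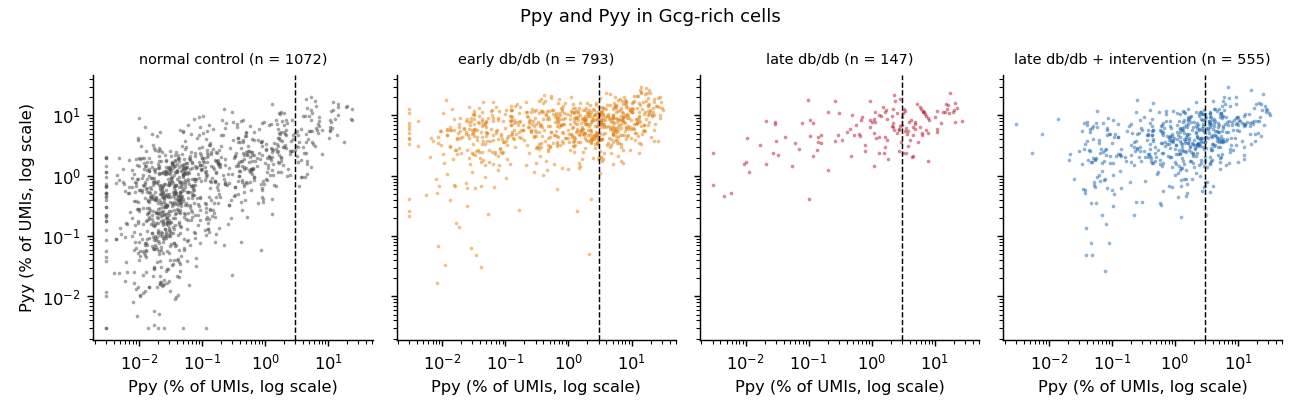
Ppy share (x axis) against Pyy share (y axis), both in percent of UMIs on log axes, for each Gcg-rich cell in each of the 4 libraries; cells with 0 UMIs are drawn at the edge. Median Pyy over all Gcg-rich cells was 0.742% in the control and 4.07% to 6.61% in the other libraries.

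Double-hormone cells were close in depth to the other classes of their library. They held medians of 23295, 19810, 35590 and 14236 UMIs, which is 1.14, 1.12, 1.21 and 1.13 times the median of Gcg-only cells. Against Ppy-rich cells the ratios were 0.827, 0.906, 1.17 and 0.978. Of double-hormone cells, 4.29%, 3.03%, 1.75% and 0.559% were among the highest doublet scores of their library (Scrublet), against 1.30%, 0.945%, 5.56% and 1.60% of Gcg-only cells. Without those cells the shares of double-hormone cells were 6.34%, 32.8%, 39.7% and 32.5%. None of the double-hormone barcodes occurred in another library, apart from 2 in the intervention library.

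Markers of cells outside the islet were found in double-hormone cells at levels that differed between lists and libraries. Levels are in CPM, the usual scaling to the library total, here over the UMIs outside mitochondrial and 7 hormone genes. Summed over 10 B and T cell markers they reached 7.85, 5.47, 110 and 7.16 CPM, and 3 of the 10 had a UMI in each library other than the late one, where all 10 had a UMI and Gcg-only cells were at 117 CPM. Of 57 double-hormone cells in the late library, 26 (45.6%) carried at least 5 UMIs of markers of other types, against 12.9%, 6.44% and 9.50% of the cells in the control, early and intervention libraries. The 5 acinar markers summed to 130, 6393, 294 and 123 CPM, highest in the early library. The 6 macrophage markers summed to 133, 140, 160 and 209 CPM, with Csf1r at 0 in every library. The 5 duct markers summed to 543, 916, 668 and 784 CPM, beside 409, 866, 622 and 738 CPM in Gcg-only cells, and most of this was Krt8, Krt18 and Spp1. Sox9 was at 0 in the late and intervention libraries and Krt19 at 0 in the control. Of the islet's own other types, 6 delta markers summed to 9789 CPM in the control and to 819 to 1968 CPM elsewhere, beside 2557 CPM in Gcg-only cells of the control. Sst, which the rule limits, made up 8134 CPM of the 9789. The median Sst share of the control's double-hormone cells was 0.0128% of UMIs and the highest 4.62%. The part that these other markers play in the results was not tested. Leaving out all marker-carrying cells removed 69 double-hormone, 198 Gcg-only and 24 Ppy-rich cells, and values without them stand beside some results below.

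The label of the cells was checked against alpha and gamma markers. Irx1 stood at 136, 176, 157 and 208 CPM in double-hormone cells, and Irx2 at 191, 172, 192 and 234 CPM. Etv1 and Meis2, transcription factors on the gamma list, stood at 536, 449, 519 and 515 CPM and at 245, 175, 213 and 210 CPM, beside 528, 519, 521 and 471 CPM and 215, 184, 200 and 185 CPM in Gcg-only cells. In Ppy-rich cells Etv1 was at 588, 461, 530 and 450 CPM and Meis2 at 342, 238, 310 and 273 CPM. Etv1 thus differed little between the classes and does not tell them apart. Of the other gamma list members, Slc6a4 and Aqp3 had 0 UMIs in double-hormone and in Ppy-rich cells of all libraries.

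Within each library, double-hormone cells differed from Gcg-only cells in few genes. An edgeR quasi-likelihood test on UMIs summed per library and class, with library as a block, called 112 of 10732 genes (1.04%) at a Benjamini-Hochberg adjusted p under 0.05, 77 higher and 35 lower. The 4 libraries served as replicates although they belong to different groups, so the test asks for a difference shared by the 4 groups. Tspan8, Fxyd3, Pyy and Folr1 had the largest rises among genes of at least 20 CPM that were higher in all 4 libraries, and the alpha markers that passed were all lower. With library sizes from all UMIs, hormones included, the call went to 36 higher and 425 lower, with hormone UMIs being 43.8%, 51.4%, 46.4% and 47.2% of all in double-hormone and 37.6%, 45.7%, 40.8% and 40.7% in Gcg-only cells. DESeq2 called 43 genes, all among the 112, and without the control library 67 were called, 62 of them among the 112. Without marker-carrying cells 83 were called, 71 of them among the 112.

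Tspan8, a tetraspanin of the cell membrane on chromosome 10 (chr10:115816832-115849893), came first among these. It stood at 181, 55.5, 82.1 and 89.9 CPM in double-hormone cells, in the same order of libraries, against 25.9, 13.8, 20.2 and 20.3 CPM in Gcg-only cells. In the late library 1 double-hormone cell held 37 of 87 Tspan8 UMIs, and 1 Gcg-only cell held 14 of 30. The log2 difference of Tspan8 was 2.40 (SE 0.13, edgeR adjusted p = 6.32e-11). Its values in the 2 classes did not overlap over the libraries, but the share of all genes like this was not counted. Pyy stood at 137501, 218120, 179043 and 166883 CPM against 23399, 130445, 123472 and 85713 CPM. Its log2 difference was 1.18 (SE 0.18, edgeR adjusted p = 0.000927), and it was 2.55 within the control but 0.74, 0.54 and 0.96 within early, late and intervention libraries. The control had the lowest Pyy in both classes, and its Gcg-only cells were far below all other sums.

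Folr1, a folate receptor, was at 149, 66.9, 53.8 and 107 CPM against 50.8, 47.4, 46.4 and 42.1 CPM (log2 1.0, SE 0.15). Fxyd3, a regulator of the sodium pump, was at 101, 35.8, 31.1 and 40.6 CPM against 27.5, 19.2, 25.6 and 17.8 CPM (log2 1.25, SE 0.18). For both genes the difference was smallest in the late library. Fkbp11, an endoplasmic reticulum (ER) prolyl isomerase, was at 60.6, 143, 155 and 169 CPM against 30.9, 82.7, 85.5 and 102 CPM, and its log2 difference of 0.82 (SE 0.08) ranged from 0.73 to 0.98 over the libraries. The aminopeptidase gene Anpep (log2 0.88), the glutathione peroxidase gene Gpx2 (0.77), the membrane protein gene Smim1 (0.81) and the cell cycle gene Cks1b (0.77) also rose, with edgeR adjusted p from 0.0043 to 0.0378. Of 36 Cks1b UMIs in the control's double-hormone cells, 17 were in 1 cell. Tspan8, Fxyd3, Folr1 and Fkbp11 had edgeR adjusted p from 6.32e-11 to 0.000602. A RIKEN gene of unnamed function made up the tenth.

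Of the alpha markers, 3 of 9 tested fell and none rose, with a list median of -0.28 on the log2 scale against 0.013 for all genes tested. Ttr, which encodes the carrier protein transthyretin, was at 34051, 49112, 37876 and 37787 CPM against 58913, 79328, 56953 and 67213 CPM (log2 -0.73, SE 0.03, edgeR adjusted p = 8.79e-12). Slc38a5, a glutamine transporter of alpha cells (chrX:8271133-8280179), was at 119, 245, 263 and 260 CPM against 145, 333, 462 and 399 CPM (log2 -0.55, SE 0.07). Every library had less of both in double-hormone cells. The cationic amino acid transporter gene Slc7a2 had a log2 difference of -0.46 (SE 0.07). Members that did not pass were Irx1 at -0.28 (edgeR adjusted p = 0.109), Irx2 at -0.06, Pou3f4 at -0.74, Gc at 0.00, Smarca1 at 0.01 and Pcsk2 at -0.02. The 3 that fell, a carrier protein and 2 transporters, had edgeR adjusted p of at most 0.000638.

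Among the 8 gamma markers tested, Pyy alone rose. Etv1 (-0.02), Meis1 (0.22), Meis2 (0.09), Id4 (-0.72), Sertm1 (-0.22), Fxyd6 (0.08) and Thsd7a (-0.47) did not pass. Of 23 islet regulators none passed by edgeR or DESeq2, and 3 had an unadjusted p under 0.05 by edgeR. Over all genes 1.04% passed by edgeR. With library sizes from all UMIs 4 of the 23 were lower. The beta cell factors Pdx1 (log2 1.44, edgeR adjusted p = 0.103) and Nkx6-1 (0.49, adjusted p = 0.166 by edgeR) were low and did not pass. Iapp, the amylin gene, was at 6576, 2256, 3672 and 14513 CPM against 2338, 1740, 2927 and 13451 CPM. Its log2 difference of 0.57 (SE 0.12) had an edgeR adjusted p of 0.0217, but this was lost under 5 alternatives. The adjusted p was 0.0594 with library sizes from all UMIs and 0.365 without cells of high UMI count, both by edgeR. Without marker-carrying cells it was 0.260 and without the late library 0.0581 by edgeR, and DESeq2 gave 0.831.

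Some genes of ER folding and its stress response rose by small amounts. Of 26 tested, 7 rose and none fell, with a list median of 0.21 against 0.013 for all genes. Dnajb9, a chaperone of the ER, was at 278, 398, 218 and 274 CPM against 207, 275, 152 and 188 CPM (log2 0.51, SE 0.06). Manf, a secreted ER stress protein, was at 596, 725, 602 and 625 CPM against 439, 561, 524 and 492 CPM (log2 0.34, SE 0.05). Both were higher in every library. Dnajc3 (0.33), Selenos (0.33), Sec61b (0.31), Pdia6 (0.30) and Ssr4 (0.23) also passed, and 22 of the 26 lay above 0. With library sizes from all UMIs the list had 2 higher calls and a median of 0.05, against -0.14 for all genes.

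The amino acid list had 4 of 19 genes lower and none higher: Slc38a5, Slc7a2, the aromatic amino acid decarboxylase gene Ddc (-0.41) and the amino acid transporter gene Slc38a4 (-0.30). Of 22 genes of the secretory granule, Sec11c (0.40) and Scg3 (0.22) rose and Vgf (-0.77), a neuropeptide precursor, fell. Outside the lists, Olfm1, a secreted olfactomedin, was at 25.8, 30.3, 17.0 and 40.6 CPM against 49.1, 47.6, 37.7 and 70.5 CPM (log2 -0.81, SE 0.12). The potassium channel subunit gene Dpp10 (-0.75), the kinase gene Prkd1 (-0.75), the scaffold gene Anks1b (-0.96) and the matrix gene Mfap2 (-0.68) fell as well. None of 18 channel and receptor genes, 21 immediate early genes, 24 interferon and MHC genes, 13 genes of the integrated stress response and 6 dedifferentiation genes passed by edgeR. Over all genes 1.04% passed, so lists of this size without a call are near that share. In all, 1178 of the 10732 genes had an unadjusted p under 0.05.

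Some calls rested on single cells. Lyz2, the lysozyme gene of macrophages (log2 -4.10), had 164 of 173 UMIs in 1 Gcg-only cell of the late library and 112 of 115 in 1 of the intervention library. The trypsin gene Prss3 (-1.53) and the MHC class II gene H2-Aa (-1.09) were alike, with 181 of 213 Prss3 UMIs and 81 of 116 H2-Aa UMIs in 1 cell of a library. Ccl21a and C3 were called higher with 1140 of 1164 and 107 of 116 UMIs in 1 double-hormone cell of the late library. Of 4 macrophage markers tested, 3 were called lower, and with marker-carrying cells left out 1 of the list was tested and none called.

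**Figure D3:**
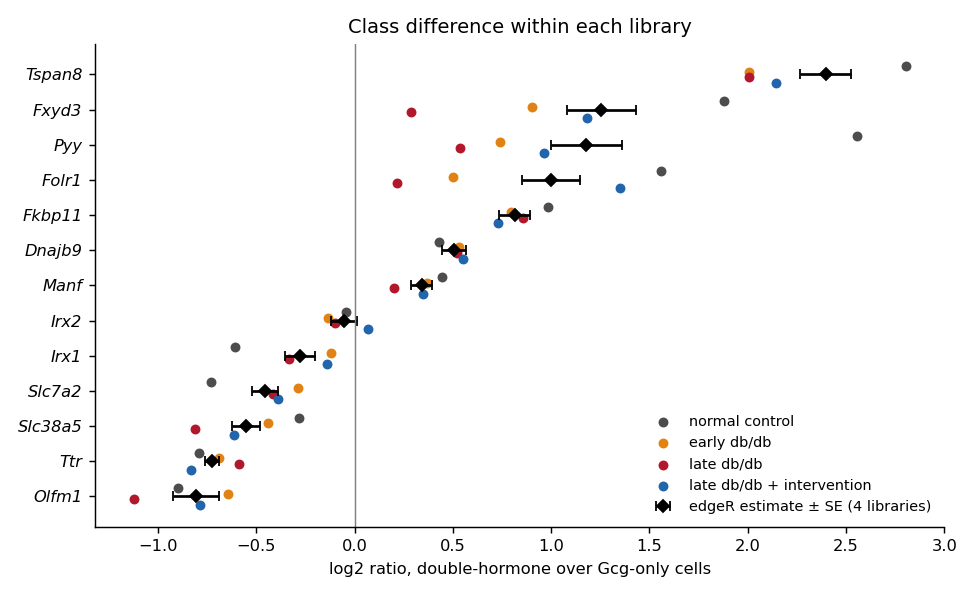
Log2 ratio of double-hormone over Gcg-only cells (x axis) for 13 named genes (y axis), with 1 point per library and the edgeR estimate ± SE over 4 libraries. Tspan8 lies at 2.40 and Ttr at -0.73, and all 4 libraries fall on the same side of 0 for both.

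More genes were called against Ppy-rich cells than against Gcg-only cells. The same edgeR test called 1904 of 8955 genes (21.3%), 408 higher and 1496 lower in double-hormone cells. The direction depended on scaling: edgeR with TMM factors called 716 higher and 616 lower, and library sizes from all UMIs gave 1295 higher and 354 lower. The median of all genes was -0.19, 0.00 and 0.16 on the log2 scale under these scalings, so values here are read against -0.19. Without the early library 1063 genes were called, and DESeq2 called 502.

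Alpha genes set the double-hormone cells apart. Of 8 alpha markers tested, 6 were higher and 1 (Smarca1) lower. Irx1 was at 3.07, 17.7, 31.2 and 22.1 CPM in Ppy-rich cells, which is 3.23 below double-hormone cells on the log2 scale (SE 0.20, edgeR adjusted p = 5.74e-14), and Ttr at 3594, 3781, 4082 and 4022 CPM (log2 3.35, SE 0.05). Slc38a5 (3.41), Irx2 (2.11) and Slc7a2 (1.80) were higher too. Each of these 5 had its lowest double-hormone library above its highest Ppy-rich library. They were taken from the 6 markers called higher, so this separation is a description. The share of all genes that separated in this way was not counted. Of all genes tested in this comparison, 21.3% were called in either direction by edgeR.
The adenylate cyclase gene Adcy1 had 147 UMIs in double-hormone cells and 0 in Ppy-rich cells, which is at least 20.3-fold higher against a floor of 3 UMIs over the group. The genes Hhatl (3.28), Col27a1 (3.25), Specc1 (3.22), Pcp4l1 (3.21) and the zinc transporter gene Slc30a8 (3.19) followed. Of 18 channel and receptor genes, 4 were higher and 6 lower by edgeR, but 4 and 2 with TMM factors and 5 and 1 with library sizes from all UMIs. The higher ones were the receptor genes Adrb1 (adrenergic, 2.16), Avpr1b (vasopressin, 1.70), Sstr2 (somatostatin, 1.65) and Gpr119 (lipid amides, 0.69). The lower ones were the receptor genes Gipr (-1.09), Ffar4 (-0.43) and Sstr3 (-0.35) and the channel genes Kcnk16, Scn9a and Abcc8.

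Double-hormone cells held a small share of the Ppy-rich level of Tspan8, Limch1, Vsig1 and Ntm. The genes were chosen for that low level and the limits set the share of Ppy, so the shares are a description. Double-hormone cells held 13.9%, 15.4%, 19.9% and 19.9% of the Ppy-rich cells' Ppy level in the 4 libraries, and 44.2%, 53.8%, 48.0% and 41.2% of their Pyy level. Tspan8 was at 1567, 1152, 1093 and 988 CPM in Ppy-rich cells, and double-hormone cells held 11.5%, 4.82%, 7.51% and 9.10% of that. Limch1, an actin-binding protein gene, was at 61.4, 72.3, 69.7 and 90.3 CPM in Ppy-rich cells, and double-hormone cells held 1.83%, 0.582%, 1.35% and 2.64% of that. Vsig1, a membrane protein gene, had 0, 1.54%, 0 and 0% of its Ppy-rich level, and the adhesion gene Ntm 11.5%, 6.11%, 4.68% and 3.30%. The muscarinic receptor gene Chrm3 (log2 -4.10), the calcium-binding protein gene S100a16 (-3.92), the fibrinogen gene Fgb (-3.73), Prr15l (-3.64), Cabp7 (-3.53) and the annexin gene Anxa2 (-3.42) were also among the 10 lowest.

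Of 22 islet regulators, 3 were higher in double-hormone than in Ppy-rich cells (Onecut2 1.43, Rfx6 0.78 and Prox1 0.52) and 6 lower. The lower ones were Nkx6-1 (-2.12), Pdx1 (-2.09), Hhex, Tshz1, Pax6 and Isl1. The prohormone convertase gene Pcsk1 was 2.88 lower on the log2 scale, at 10.1, 4.63, 3.77 and 14.3 CPM against 62.9, 51.4, 44.0 and 74.3 CPM. Etv1 (-0.01) and Gc (0.02) did not pass by edgeR. Of 20 immediate early genes 16 were lower, with a median of -0.74, and 11 of the 20 were lower with library sizes from all UMIs. The ER list had 15 lower and 1 higher of 26, but 2 lower and 4 higher of 25 with library sizes from all UMIs.

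**Figure D4:**
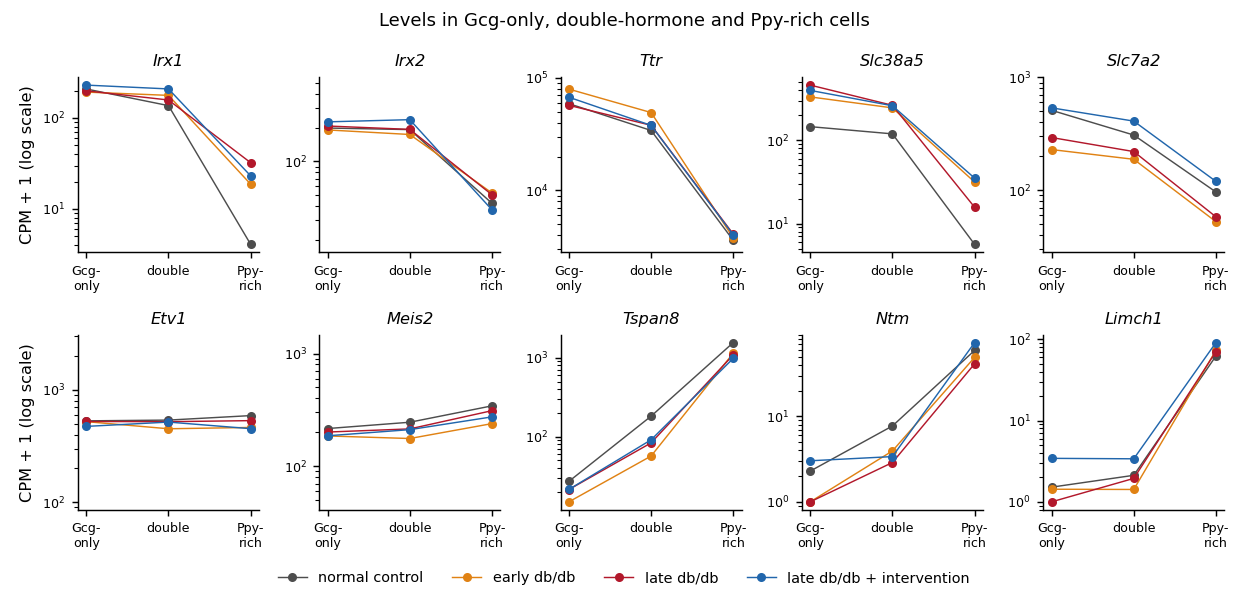
Level (CPM + 1, log axis) of 10 genes in Gcg-only, double-hormone and Ppy-rich cells (x axis), with 1 line per library. Irx1 and Ttr are higher in Gcg-only and double-hormone cells than in Ppy-rich cells, while Limch1 is high in Ppy-rich cells and at most 2.39 CPM in double-hormone cells.

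The levels of double-hormone cells were then compared between libraries. A gene entered where the higher of the 2 libraries had at least 50 CPM and both together held 50 UMIs, and was counted from a 2-fold difference. Against the control, 131 of 3475 genes (3.77%) were counted in late db/db, 177 of 3452 (5.13%) in early db/db and 98 of 3535 (2.77%) with the intervention. Intervention against late db/db gave 83 of 3425 (2.42%). The splits were 59 higher and 72 lower for late db/db, 70 and 107 for early db/db, 55 and 43 for the intervention against control, and 40 and 43 against late db/db. With TMM factors late db/db had 79 higher and 46 lower and early db/db 93 and 50. A denominator of all UMIs gave the intervention 20 and 33 against control and 10 and 23 against late db/db. Without the marker-carrying cells, late db/db against control had 37 higher and 99 lower, and intervention against late db/db 63 and 34. The late and intervention comparisons share libraries, as do all comparisons with the control.

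Many of these differences were found in Gcg-only cells as well. Of the genes counted in double-hormone cells, 39.7%, 58.8%, 42.2% and 46.9% were also counted in the same direction in Gcg-only cells, for late and early db/db against control, intervention against late db/db and intervention against control. They made up 56.5%, 67.1%, 44.3% and 59.0% of the genes counted in Gcg-only cells. Whether the classes differed in their response has no test with 1 library per group.

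Of the alpha genes, Slc38a5 stood at 119, 245, 263 and 260 CPM, lowest in the control. The log2 ratio to control was 1.04 for the early (95% interval 0.74 to 1.36), 1.15 for the late (0.82 to 1.48) and 1.13 for the intervention library (0.81 to 1.46). Gcg-only cells had 145, 333, 462 and 399 CPM. With Ppy of at least 5% the ratios were 0.64, 0.86 and 0.83, all under 2-fold, and without marker-carrying cells the late ratio was 0.76. Gc, the vitamin D binding protein gene, was at 302, 631, 570 and 460 CPM, and its log2 ratio was 1.07 in the early library (0.88 to 1.26). The other alpha markers tested stayed under 2-fold in each comparison.

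Pyy in double-hormone cells had log2 ratios to control of 0.67, 0.38 and 0.28 in the early, late and intervention libraries. In Gcg-only cells the same ratios were 2.48, 2.40 and 1.87. Against control, Iapp was 1.54 lower in the early and 1.14 higher in the intervention library on the log2 scale, with 6576, 2256, 3672 and 14513 CPM over the libraries. Median insulin shares of endothelial cells, which make none, were 1.87%, 0.293%, 0.570% and 4.19% in the same libraries. The order of the libraries was the same as for Iapp in double-hormone cells. In Gcg-only cells the order of Iapp differed, with late db/db 0.32 above the control on the log2 scale. The part of free beta cell RNA in the Iapp values was not tested.

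Among immediate early genes, which respond within minutes to stimuli and to tissue dissociation, several were lower in the intervention library than in late db/db. Of 18, 8 were at least 2-fold lower and none higher, with a median of -0.91 beside 0.08 for all genes, and a median of -1.25 in Gcg-only cells. Against control 5 of 16 were lower and none higher, with a median of -0.85. Late db/db against control had 3 higher and 1 lower of 19, and early db/db 3 higher and none lower of 18. Fos was at 1018, 1826, 1364 and 559 CPM, Ier2 at 219, 366, 291 and 89.9 CPM and Atf3 at 13.5, 36.6, 56.6 and 4.77 CPM. The intervention library was the lowest of the 4 for all 3 genes. Klf2 was at 16.8, 115, 125 and 26.3 CPM and Nr4a1 at 16.8, 66.5, 56.6 and 7.16 CPM. On the log2 scale Klf2 was 2.77 above control in the early and 2.89 in the late library (95% interval 2.11 to 3.77), and Nr4a1 1.98 and 1.75. Without marker-carrying cells the late values were 2.03 for Klf2 and 0.89 for Nr4a1, and Klf2 was 1.05 lower with the intervention than in late db/db instead of 2.25. With Ppy of at least 5% the late value was 0.17 for Nr4a1 and 0.70 for Atf3 instead of 2.07, and Klf2 was 0.63 lower with the intervention.

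Genes of antigen presentation differed in opposite directions between paralogs, which share sequence, so their counts are uncertain. H2-D1 was at 462, 932, 1005 and 914 CPM, and H2-K1 at 469, 180, 159 and 126 CPM. H2-K1 thus was highest and H2-D1 lowest in the control. H2-Q2 had 109 UMIs in the control and 0 elsewhere, at least 96.9-, 43.2- and 51.2-fold lower in early, late and intervention libraries against a floor of 3 UMIs per library. Over all deposited barcodes of a library, endocrine cells included, H2-Q2 was at 34.1 CPM of all UMIs in the control. It was at 0.056, 0.182 and 0.038 CPM in the early, late and intervention libraries. B2m was at 29.2, 123, 85.9 and 57.3 CPM. Its late ratio of 1.56 on the log2 scale became 0.26 without marker-carrying cells, and the early ratio of 2.08 became 2.0.

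Tmsb15b1 and Pianp also separated the control from the db/db libraries over all deposited barcodes. Tmsb15b1, a thymosin gene, was at 334, 1.68, 0.944 and 1.59 CPM in double-hormone cells. Over all barcodes of each library, endocrine cells included, it was at 35.5, 0.120, 0.124 and 0.0823 CPM of all UMIs. Pianp, a membrane protein gene, had 0 UMIs in the control and 90.4, 82.1 and 109 CPM in the others, at least 26.9-, 24.4- and 32.4-fold higher. Over all barcodes Pianp was at 0.361, 44.3, 45.6 and 44.6 CPM of all UMIs. Rnaset2b and Fam159b were lower in double-hormone cells of all db/db libraries. In the control, Fam159b was at 87.5 CPM in double-hormone cells but 5.25 CPM in Gcg-only cells. Hadh, a fatty acid oxidation gene, was 3.58 lower in early db/db on the log2 scale. Spp1, the osteopontin gene, was at 55.0, 467, 225 and 201 CPM, higher than control in all db/db libraries. Rbp4, a retinol carrier gene, was at 1641, 640, 709 and 1121 CPM and Fxyd6 at 185, 63.1, 63.2 and 110 CPM. Both were at least 2-fold lower than control in early and late db/db, though not with the intervention. With Ppy of at least 5% Rbp4 was 0.99 lower in late db/db on the log2 scale, just under 2-fold. The circadian gene Dbp was at 74.8 CPM with the intervention and 16 CPM in late db/db.
The remaining extremes were also found outside these cells or in single cells. All 5 acinar markers were higher in the early library, and Ctrc had 176 CPM of all UMIs in its double-hormone cells but 547 over all its barcodes. The haemoglobin gene Hbb-bs was at 259 CPM with the intervention, where all barcodes together had 3332 CPM of all UMIs. In the late library, single cells held 91 of 92 Dcn, 62 of 63 Cxcl12, 60 of 60 Ccl7 and 53 of 55 Ccl19 UMIs. In the control 1 cell held all 127 Ube2c and 57 of 59 Stmn1 UMIs. None of 22 ER genes tested was 2-fold apart in any of the 4 comparisons. Over all genes 2.42% to 5.13% were counted, so few of 22 would be counted at that share.

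**Figure D5:**
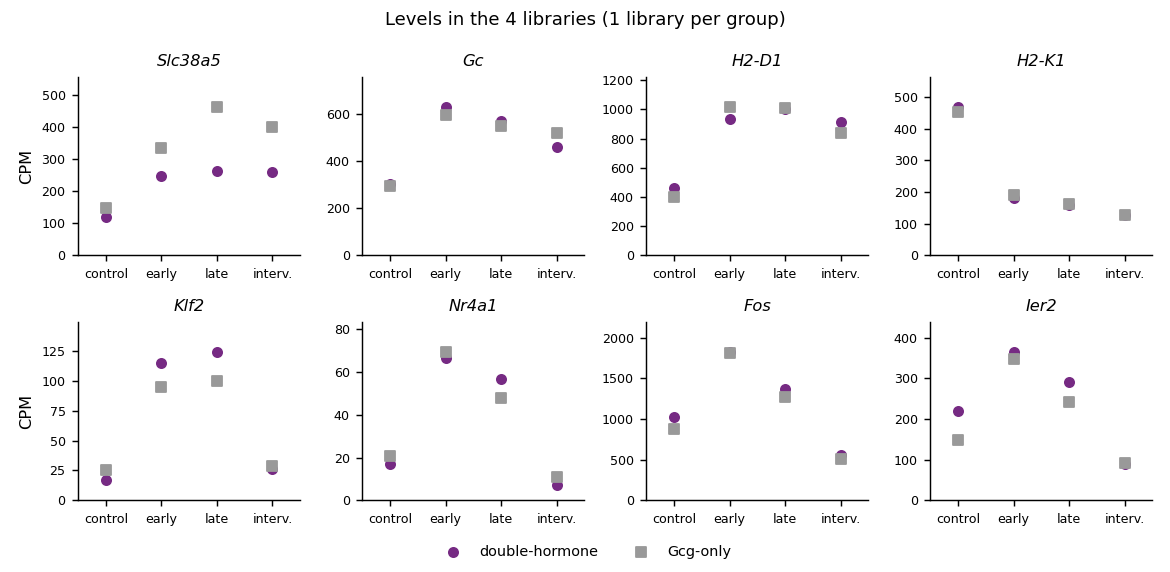
Level in CPM (y axis) of 8 genes in double-hormone (circles) and Gcg-only cells (squares) in the 4 libraries, 1 value per library and no error. Slc38a5 is lowest in the control in both classes, and Fos and Ier2 are lowest with the intervention.

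The 10 other tested genes within 250 kb of Ppy and Pyy did not pass the edgeR test between double-hormone and Gcg-only cells, with log2 values from -0.63 to 0.28 and a smallest adjusted p of 0.319. Over all genes 1.04% passed that test, so the lack of a call among 10 genes says little about them.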

How the data were processed

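The deposited matrices hold raw UMI counts, whole numbers for each gene in each barcode, written by Cell Ranger 3.0.0 per the file headers. Per the submitters' processing notes, CASAVA 1.8, Cell Ranger, Seurat and the build mm10 were used. No annotation release is stated there.

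Barcodes were kept with at least 1000 UMIs, 500 genes and at most 20% mitochondrial UMIs, leaving 4629, 4800, 6301 and 5115 cells with medians of 26469, 14993, 6428 and 26842 UMIs (120934779 to 166034254 UMIs per library). No doublets were removed in the main analysis. An alternative removed each library's highest Scrublet scores (scanpy 1.11.5) at 0.8% per 1000 cells.

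UMIs were summed per library and class and tested with edgeR 4.0.16 (library as block), without Gcg, Ppy, Ins1, Ins2, Sst and mitochondrial genes. Library size left out mitochondrial genes and 7 hormone genes (Gcg, Ppy, Pyy, Sst, Iapp, Ins1 and Ins2). Ratios between libraries carry exact conditional binomial 95% intervals, which, like floors of 3 UMIs, cover counting error only. The fit was tested on simulated data.

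Genes were named as the 10 largest changes in each direction past the threshold, with 1 sign in all libraries and at least 20 CPM, the 6 largest ratios between libraries in each direction, and up to 4 members per list. Other genes were chosen after their values were seen. Some list members are not reported here and stay out of the list counts. The cells, lists and tests were chosen with earlier results of these data known. Alternatives were TMM factors, other library sizes, DESeq2 1.42.0, filters, doublets, depth and leaving out each library. Those on shared barcodes and on cells with other types' markers were chosen after seeing the data. Gene positions came from GENCODE M21 (30766 of 30905 identifiers matched).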

Additional observations from a re-analysis of the deposited data

Results flagged for a closer look

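Apoe, the apolipoprotein E gene, which macrophages express strongly, went in opposite directions between the libraries. It was higher in double-hormone than in Gcg-only cells in late db/db (log2 2.69) and lower in the control (-1.82), in early db/db (-3.48) and with the intervention (-3.80). The difference between the libraries was not tested. Single cells held most of these counts. In late db/db 176 of 213 Apoe UMIs of double-hormone cells were in 1 cell. In Gcg-only cells, 593 of 806 in the control, 602 of 969 in early db/db and 1103 of 1186 with the intervention were in 1 cell.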

How the results depend on the processing

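The control had the lowest share of double-hormone cells among Gcg-rich cells under every limit tried. With Ppy of at least 2% the shares were 8.49%, 41.7%, 49.7% and 43.8% in control, early, late and intervention libraries, and with at least 5% they were 3.92%, 24.2%, 23.8% and 19.8%. The late and early libraries thus changed order. Against Gcg-only cells the count of 112 genes went to 461 with library sizes from all UMIs, 43 with DESeq2, 231 with no filter on low counts, 69 without cells of high UMI count and 210 with limits of 5% and 1% Ppy. Leaving out each library gave 67 to 108. Against Ppy-rich cells DESeq2 gave 502, and 1023 were called without cells of high UMI count, with a range of 1063 to 1707 when each library was left out. Between libraries, a denominator of all UMIs gave 62 genes for late db/db against control, 33 for intervention against late db/db and 53 for intervention against control. A minimum of 25 CPM gave 340 for early db/db against control, 171 for intervention against late db/db and 174 for intervention against control, since more genes entered. Of 36 named genes called against Gcg-only cells, 16 stayed past the threshold in every alternative, and of 64 against Ppy-rich cells 41 did. The cause of the other changes was not tested.

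Some values turned sign, and most of these lay near 0 and had not passed. Against Gcg-only cells the log2 value of Gc went to -0.00508 with TMM factors, -0.147 with all UMIs, -0.0427 without cells of high UMI count, -0.00154 without shared barcodes, -0.0216 without marker-carrying cells and -0.0436 with limits of 5% and 1% Ppy. With all UMIs Meis2 was -0.0624, Smarca1 -0.139 and Fxyd6 -0.0697. Fxyd6 was -0.0013 and Pcsk2 0.00707 without cells of high UMI count, Fxyd6 -0.0517 and Etv1 0.00102 with limits of 5% and 1% Ppy, and the acinar gene Cela1, called at 0.58, was -0.0455 without the highest doublet scores. With each library left out in turn, Gc ranged from -0.0307 to 0.0649, Smarca1 from -0.0467 to 0.0788, Pcsk2 from -0.0430 to 0.00378 and Etv1 from -0.0730 to 0.0494. Against Ppy-rich cells 4 called genes turned sign. Krt18 (-0.33) was 0.0104 and H2-D1 (-0.26) 0.0728 with all UMIs, H2-Q2 (1.02) was -0.59 with DESeq2, and Cck (-0.94) ranged from -1.23 to 0.116 with a library left out, the last without the intervention library. No paired analysis was possible because each group has 1 library, as far as groups are compared. The tests between cell classes were paired, with the library as a block. Depth limits genes under about 50 CPM, and the late library had the fewest double-hormone cells.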

Other observations

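Ppy was also found in cells rich in Sst, the somatostatin gene of delta cells, and there the libraries had another order. Cells with at least 3% Ppy were 53.8% of Sst-rich cells in the control (249 of 463, exact 95% interval 49.1 to 58.4). The early library had 43.0% (37.4 to 48.8), the late library 35.6% (27.5 to 44.4) and the intervention library 43.0% (37.0 to 49.2). The control was thus the highest library in Sst-rich cells and the lowest in Gcg-rich cells. Among insulin-rich cells the shares were 0.522%, 1.42%, 1.01% and 0.633%. Other pairs of hormones were rarer with Gcg: 18, 2, 2 and 11 cells held at least 10% Gcg and at least 10% insulin, and 14, 5, 1 and 3 held at least 10% Gcg and at least 5% Sst.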
